A study of Mus musculus with 10 samples.

Results

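The transcripts described here encode 8 transcription factors that set and maintain intestinal identity, namely Cdx1, Cdx2, Hnf4a, Hnf4g, Klf4, Klf5, Gata6 and Vdr. They were taken by gene name from a table of 55487 genes, by a rule that uses no measured value but was written with earlier results of these data known, and all 8 exceeded the minimum level for testing. RNA was sequenced from colonic intestinal epithelial cells (IECs) of C57BL/6J mice, 5 WT and 5 RhoB-/-, 1 library per replicate. RhoB is a small GTPase, and the design asks how IEC transcription differs when the gene is lost. The WT animals carried no engineered allele, and the RhoB-/- animals were made as whole-body homozygous knockouts, with no restriction to epithelium. The library labelled RhoB-/- replicate 5 went against its label, with Rhob at 110.87 TPM (a length-corrected share of all transcripts). Rhob was 0.09 to 0.57 TPM in the other 4 libraries of its group and 170.52 to 388.71 in WT. That library may therefore not be a knockout. Results with and without it are given for the member calls, the pair ratios and the HNF4, CDX, other gut factor and posterior Hox calls. Log2 differences without it are given for Cdx2, Hnf4a, Hnf4g and Vdr. Most other results, among them the marker sums and the correlations, include it and are not given without it. The study's methods describe purchased WT males and knockouts made at another center, and do not say which WT mice gave these libraries. Where they were the purchased animals, genotype and origin cannot be told apart. The labels give no age, sex or treatment for individual libraries. No source names separate litters or cages, so p-values measure only the spread between these 10 libraries.

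CDX1 and CDX2 are caudal-type homeobox proteins that mark the epithelium of the small intestine and colon. HNF4A and HNF4G are nuclear receptors that bind similar DNA sites in genes for lipid handling and the brush border. KLF4 and KLF5 are zinc-finger proteins known for opposite places along the crypt, with KLF5 in proliferating cells and KLF4 in differentiated cells including goblet cells. GATA6 is a zinc-finger factor of crypt and colonic epithelium, and VDR is the nuclear receptor for active vitamin D, acting with RXR partners on calcium transport genes.

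The groups did not overlap in 2 of 3 TPM ratios within related pairs, and overlapped for every single member. Among all tested genes 14.5% were free of overlap. No such share was computed for ratios of other gene pairs, so the 2 of 3 has no background beside it. Cdx1 relative to Cdx2 was lower in every RhoB-/- library than in every WT library, and Hnf4a relative to Hnf4g was higher in every RhoB-/- library than in every WT library. Among single members, Cdx2 rose 1.34-fold (95% interval of the log2 change 0.13 to 0.71), while Hnf4g fell to 0.707 and Gata6 to 0.742 of the WT level, on the scale of TPM plus 1. Without the library labelled RhoB-/- replicate 5, 0 members were called higher and 1 lower (Gata6) by limma. The same fit called 728 genes higher and 1092 lower of all 12870 tested. Cdx2 was then at a log2 difference of 0.38 (limma adjusted p = 0.0969) and Hnf4g at -0.54 (limma adjusted p = 0.0521). The ratios were then at log2 differences of -0.42 for Cdx1/Cdx2 and 0.77 for Hnf4a/Hnf4g (exact permutation p = 0.0159 each). Groups free of overlap stay so when a library is left out, so this direction and p were fixed in advance. They are no separate evidence that the ratios hold without that library. The calls for single members depended on the scaling and on individual libraries, as given with each gene below.

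Sequence was examined first, because related genes can share reads. Coding sequences of the members on mouse GRCm38 (GENCODE M21) had no run of 31 identical bases in common within Cdx1/Cdx2, Hnf4a/Hnf4g or Klf4/Klf5. The longest shared runs were 16, 17 and 11 bases, respectively, against a read length of 150 bases. The Hnf4a/Hnf4g run lies in 1 coding exon of each gene and is shown in capitals with 30 bases on each side, on the plus strand at chr2:163562519-163562595 and chr3:3648034-3648110. These windows of 77 bases matched at 60 positions when laid end to end, and are shown because the Hnf4a/Hnf4g balance is described below.

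Hnf4a: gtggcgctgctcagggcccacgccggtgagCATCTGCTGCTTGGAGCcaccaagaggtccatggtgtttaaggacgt
Hnf4g: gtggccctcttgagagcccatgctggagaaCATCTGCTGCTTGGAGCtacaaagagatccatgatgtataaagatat

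Promoters were examined for 4 of the 8 members, Cdx2, Hnf4a, Klf4 and Vdr, with sequences from RefSeq (build GRCm38.p6), and Hnf4a had 2 starts. Promoters of Cdx1, Hnf4g, Klf5 and Gata6 were not analysed here. Cdx2 and Hnf4a, the members with higher mean levels whose 95% intervals lay above 0, are printed as the 250 bases before the start, 5′ to 3′ on the gene's strand, with motif matches in capitals. The windows are chr5:147307250-147307499 on the minus strand for Cdx2, and chr2:163506607-163506856 and chr2:163546905-163547154 on the plus strand for Hnf4a. Starts here are those of RefSeq and differ from the GENCODE gene positions given below. By those positions the printed windows lie partly or wholly within the genes.

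Cdx2 start: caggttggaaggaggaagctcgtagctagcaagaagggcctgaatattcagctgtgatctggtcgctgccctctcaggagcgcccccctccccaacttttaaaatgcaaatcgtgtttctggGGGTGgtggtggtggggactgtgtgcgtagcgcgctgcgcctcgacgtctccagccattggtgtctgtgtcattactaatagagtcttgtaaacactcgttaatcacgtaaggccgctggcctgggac
Hnf4a first start: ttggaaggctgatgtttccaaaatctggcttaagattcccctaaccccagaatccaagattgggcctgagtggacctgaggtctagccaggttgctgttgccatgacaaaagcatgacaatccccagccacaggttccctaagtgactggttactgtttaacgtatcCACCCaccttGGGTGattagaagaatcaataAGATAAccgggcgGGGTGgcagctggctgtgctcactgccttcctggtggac
Hnf4a second start: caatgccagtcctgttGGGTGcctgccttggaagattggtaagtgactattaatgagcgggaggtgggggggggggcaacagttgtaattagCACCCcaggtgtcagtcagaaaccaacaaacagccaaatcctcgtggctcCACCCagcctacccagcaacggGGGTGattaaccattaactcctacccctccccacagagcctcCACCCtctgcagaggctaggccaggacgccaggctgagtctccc

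Motifs were searched on both strands. The KLF motif CACCC occurred 1 time before Cdx2, 3 times before the first Hnf4a start and 5 times before the second, and 52.0% of 32851 promoter windows of this length held it. A GATA motif (AGATAA or TGATAA) stood 52 bases before the first Hnf4a start, and 16.6% of windows held one. No window of the 4 genes held the CDX motif TTTATG or TTTACG (13.1% of windows), the HNF4 motif CAAAGTCCA or CAAAGGTCA (0.807%), or a VDR motif of AGGTCA or GGGTCA followed by NNN and AGGTCA (0.00913%). Klf4 and Vdr held none of the motifs. No match overlapped another in the printed windows, and a match describes letters only.

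All 8 transcripts were abundant or moderately expressed in WT IECs. Levels in TPM are per length and so can be ordered between genes. The mean WT levels, as TPM ± SD over 5 libraries, were 314 ± 93.6 for Klf4, 223 ± 16.3 for Hnf4a, 186 ± 15.5 for Cdx1, 149 ± 26.5 for Klf5, 120.5 ± 15.5 for Vdr, 112 ± 9.48 for Cdx2, 23.3 ± 3.48 for Gata6 and 18.6 ± 3.51 for Hnf4g. The lowest of these, Hnf4g, lay above 61.6% of tested genes in WT, and the highest, Klf4, above 97.3%. Each gene overlapped its neighbor in this order between libraries except at one step, from Cdx2, whose lowest WT value was 103.92 TPM, to Gata6, whose highest was 25.49. In RhoB-/- IECs Cdx2 moved ahead of Vdr and Klf5 in the order of means, Vdr moved ahead of Klf5, and 3 steps were free of overlap, namely Hnf4a to Cdx1, Klf5 to Gata6 and Gata6 to Hnf4g.

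Transcripts of mitochondrial genes made up 17.5 to 26.5% of the total in WT and 10.3 to 22.4% in RhoB-/-, highest in WT replicate 1. Over the 12870 genes tested, 21.2% were called at a Benjamini-Hochberg adjusted p below 0.05 with limma, 7.73% higher and 13.5% lower in RhoB-/-. The median log2 fold change of all tested genes was -0.13. After recentering on it, 11.2% were called higher and 5.99% lower, so each member is also given relative to this median.

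By limma, 1 of the 8 members was called higher and 2 were called lower, a total of 3 members against 21.2% of all tested genes. Relative to the median of all genes, 2 were called higher (Cdx2 and Hnf4a) and 0 lower, with Hnf4g and Gata6 lower at unadjusted p values of 0.0287 and 0.0246. No member had groups free of overlap, against 14.5% of tested genes (5.97% higher and 8.55% lower). The median absolute log2 fold change was 0.29 for the members and 0.26 for all tested genes.

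**Figure D1:**
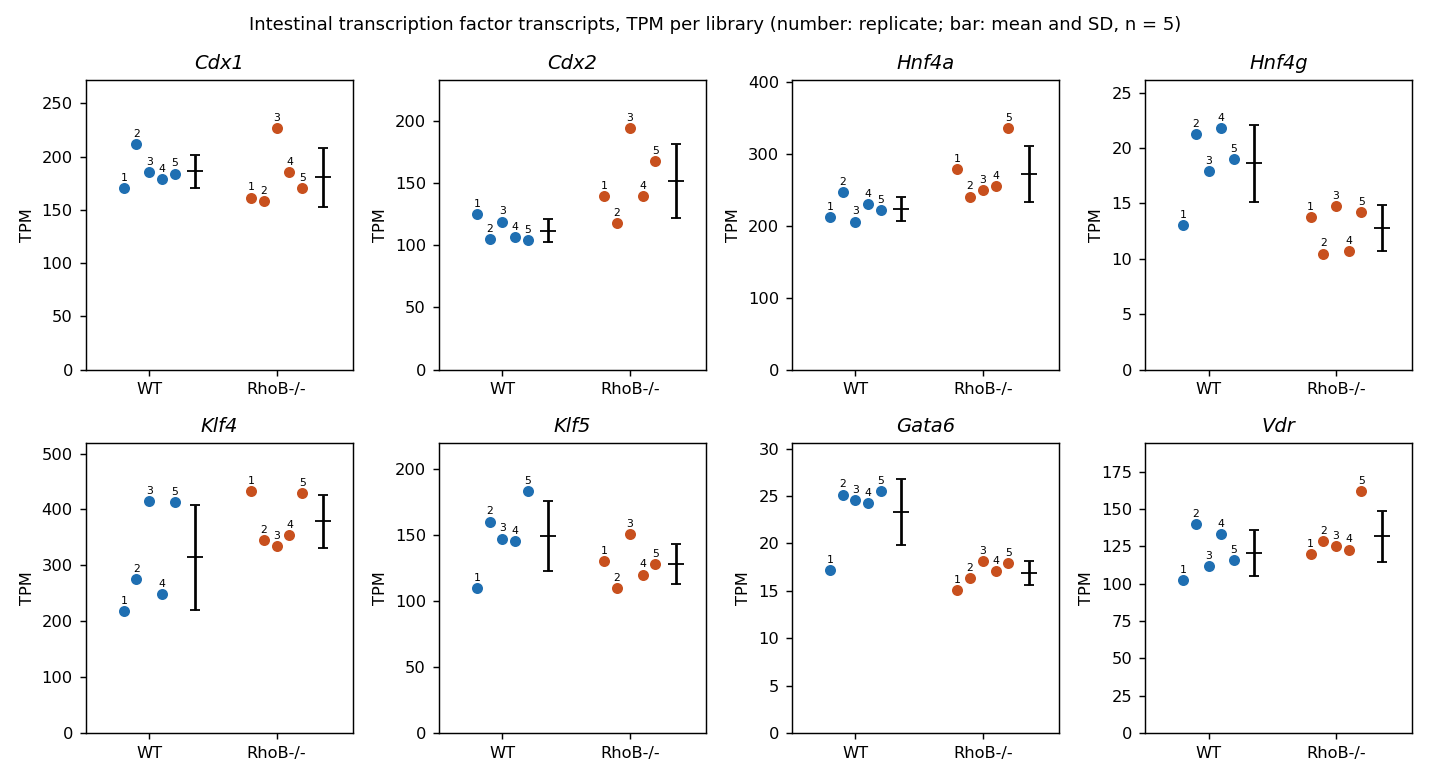
TPM of each member (vertical axis from 0, separate scale per gene) in 5 WT and 5 RhoB-/- libraries. Points are libraries numbered by replicate and bars are the mean and SD. All 5 RhoB-/- libraries lie above the WT median for Cdx2, Hnf4a, Klf4 and Vdr and below it for Hnf4g and Gata6.

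Cdx2, the homeobox factor that specifies intestinal epithelium (chromosome 5, 147300805 to 147307270, minus strand), was 124.74, 104.81, 118.87, 106.25 and 103.92 TPM in WT replicates 1 to 5. In RhoB-/- replicates 1 to 5 it was 139.66, 117.70, 194.12, 139.33 and 167.71 TPM. Only RhoB-/- replicate 2 fell inside the WT range, and replicate 3 was the highest. The log2 fold change was 0.42 (SE 0.13, limma adjusted p = 0.0447), or 0.55 relative to the median of all genes (adjusted p = 0.0158). The exact two-sided permutation test over the 252 labelings gave an unadjusted p = 0.0238. Adjusted over the 8 members, this permutation test gave p = 0.0635 for each of Cdx2, Hnf4a, Hnf4g and Gata6. The call was lost when any one of WT replicates 2, 3, 4 or 5 or RhoB-/- replicates 1 or 4 or the library labelled RhoB-/- replicate 5 was left out, with the log2 fold change between 0.33 and 0.51 and the limma adjusted p between 0.0176 and 0.102 over all 10 omissions.

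Cdx1, its paralog, is more confined to the intestine in the adult and lies on chromosome 18 (61018862 to 61036199, minus strand). Its WT values were 170.55, 211.84, 185.28, 179.11 and 184.19 TPM, and its RhoB-/- values 161.48, 158.61, 226.91, 185.56 and 170.34 TPM. The groups overlapped across nearly their whole range, with RhoB-/- replicate 3 the highest as it was for Cdx2. The log2 difference was -0.05 (95% interval -0.31 to 0.20, limma adjusted p = 0.773), and 0.074 relative to the median, so its sign turned with the scaling.

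Hnf4a (chromosome 2, 163506808 to 163572910, plus strand) encodes the nuclear receptor that drives enterocyte lipid and brush border genes. It was measured at 211.58, 246.92, 205.32, 229.62 and 221.71 TPM in WT and 278.46, 240.29, 248.78, 255.22 and 335.39 TPM in RhoB-/-. RhoB-/- replicate 2 alone lay within the WT range. The log2 difference was 0.28 (95% interval 0.03 to 0.52) with a limma adjusted p = 0.10 and an unadjusted exact permutation p = 0.0159. Relative to the median of all genes the difference was 0.40 and passed the threshold (limma adjusted p = 0.0305). Without the library labelled RhoB-/- replicate 5, the highest, the difference was 0.20 (adjusted p = 0.184). An antisense row, Hnf4aos, overlaps Hnf4a by 34913 bases on the other strand, but was above 0 in only 2 libraries, at 0.10 and 0.15 TPM.

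Hnf4g, the second HNF4 receptor (chromosome 3, 3508030 to 3658052, plus strand), was at 13.03, 21.28, 17.90, 21.81 and 19.02 TPM in WT. In RhoB-/- it was at 13.78, 10.48, 14.75, 10.69 and 14.24 TPM. WT replicate 1 lay among the RhoB-/- values, and the other 4 WT libraries lay above all 5 of them. The log2 fold change was -0.50 (SE 0.15, limma adjusted p = 0.0352), with an unadjusted exact permutation p = 0.0317. It was -0.37 relative to the median, where it was not called (adjusted p = 0.110). The call held without WT replicate 1 or RhoB-/- replicate 3 and was lost in each of the other 8 omissions, in which the limma adjusted p reached 0.0984; over all 10 the log2 fold change was -0.62 to -0.44.

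Klf4 (chromosome 4, 55527143 to 55532466, minus strand), a factor of differentiated surface and goblet cells, had the widest spread of the members in WT. Its WT values were 218.06, 275.74, 415.04, 248.06 and 413.14 TPM, and its RhoB-/- values 432.23, 344.69, 333.94, 353.90 and 428.63 TPM. WT replicates 3 and 5 fell within the RhoB-/- range, and the other 3 WT libraries were below every RhoB-/- library. The log2 difference was 0.31 (95% interval -0.10 to 0.72, limma adjusted p = 0.250), or 0.44 relative to the median.

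Klf5 (chromosome 14, 99298691 to 99315036, plus strand), a factor of proliferating crypt cells, measured 109.78, 159.82, 147.07, 144.90 and 182.76 TPM in WT. In RhoB-/- it measured 130.10, 109.69, 150.60, 119.77 and 127.76 TPM. The ranges overlapped, with WT replicate 1 nearly as low as the lowest RhoB-/- library. The log2 difference was -0.21 (95% interval -0.51 to 0.09, limma adjusted p = 0.297), or -0.08 relative to the median.

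Gata6 (chromosome 18, 11052064 to 11085635, plus strand) is the GATA factor kept in colonic epithelium, and its WT values were 17.16, 25.15, 24.56, 24.24 and 25.49 TPM. Its RhoB-/- values were 15.03, 16.32, 18.16, 17.10 and 17.90 TPM. Apart from WT replicate 1, which fell among the RhoB-/- values, the WT libraries formed a narrow group above all RhoB-/- libraries. The log2 fold change was -0.43 (SE 0.12, limma adjusted p = 0.0246), with an unadjusted exact permutation p = 0.0238. Without WT replicate 1 it was -0.53 (adjusted p = 0.00354). The call was lost without WT replicate 2, 4 or 5 or RhoB-/- replicate 1 or 4, with a limma adjusted p of up to 0.0650, and relative to the median, where the difference was -0.30 (adjusted p = 0.0993).

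The antisense row Gata6os overlaps Gata6 by 504 bases. It averaged 8.02 ± 2.29 TPM in WT and 5.32 ± 1.51 in RhoB-/-, a log2 difference of -0.51 (limma adjusted p = 0.0948). Whether gene counting used read strand is not given in the sources used here, and without it reads from the shared bases cannot be assigned to one of this pair.

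Vdr (chromosome 15, 97854425 to 97910630, minus strand) encodes the vitamin D receptor. Its WT values were 102.21, 139.66, 111.75, 133.23 and 115.64 TPM, and its RhoB-/- values 119.66, 128.60, 125.15, 122.83 and 161.80 TPM. The library labelled RhoB-/- replicate 5 stood above the rest, and the other 4 lay inside the WT range. The log2 difference was 0.13 (95% interval -0.14 to 0.39, limma adjusted p = 0.470), or 0.25 relative to the median. Without the library labelled RhoB-/- replicate 5 it was 0.05 (adjusted p = 0.774).

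**Figure D2:**
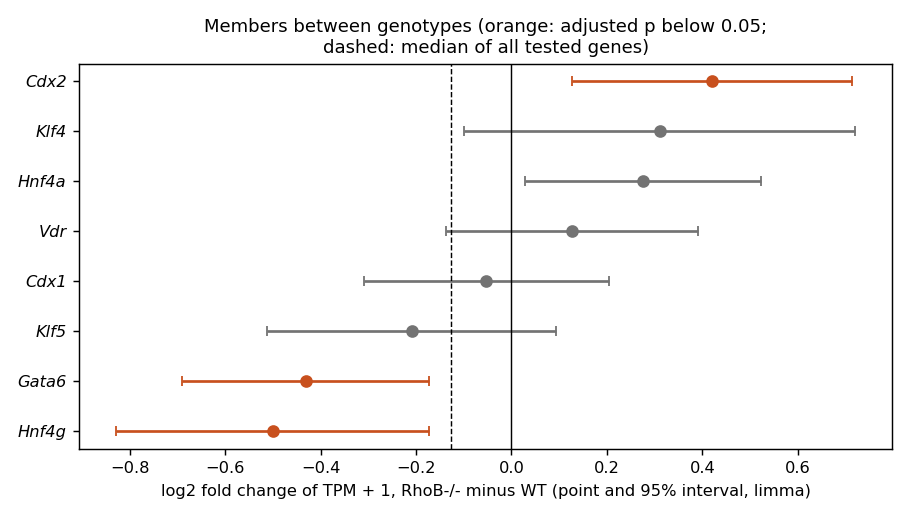
Log2 fold change of TPM + 1, RhoB-/- minus WT (horizontal axis), for the 8 members with 95% intervals from limma. Orange marks an adjusted p below 0.05, the solid line is 0 and the dashed line is the median of all tested genes, -0.13. Cdx2 is at 0.42, Gata6 at -0.43 and Hnf4g at -0.50, and the other 5 are gray.

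The ratio of 2 genes within a library does not change when all TPM values of that library are rescaled. Each related pair was therefore compared as a TPM ratio, with an exact two-sided permutation test whose smallest p is 0.00794 and with adjustment over the 3 pairs. These p-values are adjusted over fewer tests than the limma p-values, so they cannot be set side by side. No share of non-overlapping ratios over other gene pairs was computed.

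Cdx1/Cdx2 was 1.37, 2.02, 1.56, 1.69 and 1.77 in WT replicates 1 to 5. In RhoB-/- replicates 1 to 5 it was 1.16, 1.35, 1.17, 1.33 and 1.02. Thus Cdx1 was the more abundant of the pair in every library, with the library labelled RhoB-/- replicate 5 nearest to parity, and the groups did not overlap, although WT replicate 1 and RhoB-/- replicate 2 were close. The log2 ratio differed by -0.48 (SE 0.12), a ratio 0.718 of WT, with a permutation p = 0.00794 and an adjusted p = 0.0119.

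Hnf4a/Hnf4g was 16.2, 11.6, 11.5, 10.5 and 11.7 in WT and 20.2, 22.9, 16.9, 23.9 and 23.6 in RhoB-/-. All RhoB-/- ratios exceeded all WT ratios, and WT replicate 1 and RhoB-/- replicate 3 were the nearest to each other. The log2 ratio differed by 0.81 (SE 0.14), or 1.75-fold, with a permutation p = 0.00794 and an adjusted p = 0.0119. The Hnf4a and Hnf4g components moved in opposite directions in means. Without WT replicate 1 the log2 difference was 0.91, and without the library labelled RhoB-/- replicate 5 it was 0.77.

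Klf4/Klf5 was 1.99, 1.73, 2.82, 1.71 and 2.26 in WT and 3.32, 3.14, 2.22, 2.95 and 3.36 in RhoB-/-. Of the RhoB-/- libraries 4 exceeded every WT library, and replicate 3 lay within the WT range. The log2 ratio differed by 0.52 (SE 0.17), or 1.44-fold, with an exact permutation p = 0.0238 before and after adjustment. Neither gene of this pair was called alone. Without the library labelled RhoB-/- replicate 5 the difference was 0.48 (exact permutation p = 0.0476).

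**Figure D3:**
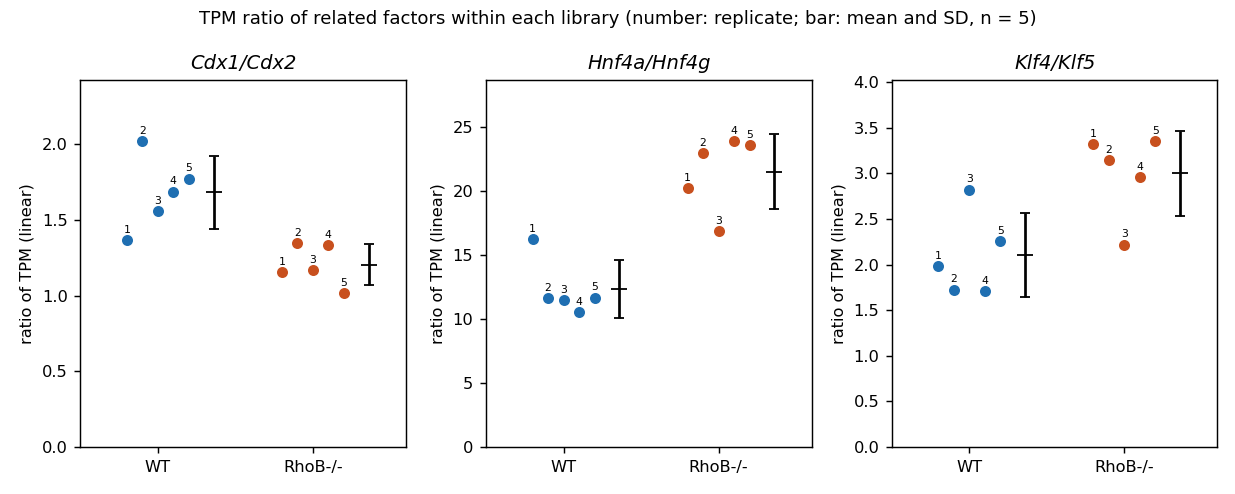
TPM ratio within each library (vertical axis, linear from 0) for 3 related pairs, with libraries numbered by replicate and bars for the mean and SD. Cdx1/Cdx2 separates downward in RhoB-/- (1.02 to 1.35 against 1.37 to 2.02), Hnf4a/Hnf4g separates upward (16.9 to 23.9 against 10.5 to 16.2) and Klf4/Klf5 overlaps at RhoB-/- replicate 3.

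The members' median coefficient of variation between replicates was 13.9% in WT and 13.6% in RhoB-/-, beside 16.0% and 19.2% for all tested genes. Single members differed in this respect. The coefficient was larger in RhoB-/- for Cdx1 (8.31% against 15.5%), Cdx2 (8.48% against 19.5%) and Hnf4a (7.30% against 14.1%). It was smaller in RhoB-/- for Klf4 (29.8% against 12.6%) and Gata6 (14.9% against 7.52%), and these differences were not tested. Deviations of log2(TPM + 1) from the group mean were correlated over the 10 libraries, as a description, since all genes of a library share its depth and RNA. Among the 28 member pairs, Pearson r was highest for Klf5 with Gata6 (0.80), Hnf4a with Vdr (0.80) and Hnf4g with Klf5 (0.79), and lowest for Cdx1 with Klf4 (-0.10). WT replicate 1 was the lowest WT library for Klf5, Gata6 and Hnf4g. The library labelled RhoB-/- replicate 5 was the highest of its group for Hnf4a and Vdr. No r was computed without these libraries. The r of Cdx1 with Cdx2 was 0.53 and that of Hnf4a with Hnf4g was 0.54.

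Over all tested genes, those with the most similar deviations were Irf2bp1 (r 0.98) for Cdx1, Ube2a (0.98) for Cdx2, Tgoln1 (0.98) for Hnf4a and Pde8b (0.98) for Hnf4g. The second in rank were Rex1bd (0.98), Mcts2 (0.97), Xk (0.98) and Brd9 (0.96), in the same order of members. For Klf4 the top genes were Nfkbiz (0.98) and Tnfaip3 (0.96), both known as NF-kB-induced regulators of inflammatory signaling. Klf5 was most like Hmgcs1 (0.95), an enzyme of cholesterol synthesis, and Zfp938 (0.94). Gata6 was most like Dyrk1b (0.996) and Gm19680 (0.97), and Vdr was most like C1ra (0.97) and Zbtb43 (0.97). All of these were picked for the highest r among 12870 tested genes over 10 libraries, which by itself favors high values. No background r was computed.

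Known targets and relatives of the members were read from the same fit. Over all tested genes 7.73% were called higher and 13.5% lower, and each list count below is to be read beside these shares. Without the library labelled RhoB-/- replicate 5, the calls below became 6 higher and 1 lower for HNF4 targets and 4 higher and 1 lower for CDX targets, and 4 posterior Hox genes were called lower. Among HNF4 target genes 16 of 20 were tested, 7 were called higher and 1 lower, and the median log2 fold change was 0.37, against -0.13 for all genes. Cdhr2 and Cdhr5, protocadherins that link neighboring microvilli, rose by 0.89 on the log2 scale (adjusted p = 0.00177) and 0.80 (adjusted p = 0.00316). Cdhr2 was 139.83 to 193.15 TPM in WT and 263.62 to 438.59 in RhoB-/-, with no overlap. Eps8l3, an EPS8-like protein, rose by 0.75, a call lost without WT replicate 4 (adjusted p = 0.0539). Fabp1, a fatty acid-binding protein, rose by 1.16 but at 0.00 to 1.41 TPM in WT and 1.41 to 2.61 in RhoB-/-, so that it reached the level for testing only through RhoB-/-. Among the other 15 tested targets, 6 were called higher and 1 lower, with a median of 0.21. Ttr, which carries thyroid hormone and retinol-binding protein, fell by 2.02 on the log2 scale, from 11.42 to 29.36 TPM in WT down to 2.69 to 5.54 in RhoB-/-. The HNF4 list thus held called genes in both directions.

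Among CDX target genes 12 of 14 were tested, with 5 called higher, 1 lower and a median of 0.24. Krt20, a keratin of differentiated surface cells, rose by 1.17 on the log2 scale, from 588.13 to 902.36 TPM in WT to 1069.5 to 2413.9 in RhoB-/-. Isx, a homeobox factor that limits vitamin A uptake, rose by 0.71 (lost without WT replicate 4, adjusted p = 0.0533), Cdh17 (liver-intestine cadherin) by 0.60 and Heph (hephaestin, a ferroxidase of iron export) by 0.58. Cftr, the chloride channel of crypt cells, fell by 0.66 on the log2 scale, with 26.69 to 40.22 TPM in WT and 18.05 to 22.09 in RhoB-/-.

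Among VDR target genes 6 of 8 were tested and 1 was called, S100g (calbindin-D9k, a calcium-binding protein). S100g was 201.83, 412.32, 371.60, 258.47 and 167.83 TPM in WT and 571.10, 1084.0, 519.62, 1080.1 and 1682.0 TPM in RhoB-/-. Every RhoB-/- library exceeded every WT library, and the log2 fold change was 1.75 (SE 0.34, limma adjusted p = 0.00478). Vdr itself was not called in the same libraries, and the median of its target list was 0.26.

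Of 10 KLF4 and KLF5 target genes, all tested, only Alpi (intestinal alkaline phosphatase) was called. It rose by 0.91 (adjusted p = 0.0109), while the median of the list was -0.27. The list pools targets of KLF4 and of KLF5, which have opposite places along the crypt, so its median describes neither factor alone.

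Of 11 tested partners of the nuclear receptors and GATA factors (RXR receptors, coactivators, corepressors and FOG proteins), 0 were called by limma in either direction, 1 was higher and 1 lower at an unadjusted p below 0.05, and the median was -0.01. After recentering or quantile normalization 1 was called higher. Rxrg was listed at 0 in every library.

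Among other Klf genes 10 of 15 were tested and 1 was called. Klf2, a factor of quiescent lymphocytes and endothelium, was 30.45, 67.18, 71.56, 86.11 and 68.52 TPM in WT and 27.11, 30.85, 35.33, 19.67 and 18.80 TPM in RhoB-/-. WT replicate 1 overlapped the RhoB-/- group, and the log2 fold change was -1.23 (SE 0.26, limma adjusted p = 0.00781). The median of the other Klf genes was -0.25, or -0.12 relative to all genes.

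Among 22 tested of 26 other gut epithelial transcription factors, 6 were called higher and 4 lower, with a median of -0.03. Nr1h4, the bile acid receptor FXR, rose by 1.002 (adjusted p = 0.000483), from 55.05 to 77.66 TPM in WT to 111.47 to 162.52 in RhoB-/-. Prdm1, a transcriptional repressor, rose by 1.19, and Creb3l3, a membrane-bound factor of lipid metabolism, by 1.15, both on the log2 scale. Prdm1 was low, at 0.66 to 1.85 TPM in WT and 2.29 to 9.52 in RhoB-/-, highest in the library labelled RhoB-/- replicate 5. Creb3l3 was 2.18 to 7.72 TPM in WT and 8.03 to 18.69 in RhoB-/-. Over all alternatives the limma adjusted p reached 0.0599 for Prdm1 and 0.0641 for Creb3l3. The Prdm1 call was lost with no filter and without WT replicate 2 or 4 or RhoB-/- replicate 1. The Creb3l3 call was lost with no filter and without WT replicate 2 or 4, RhoB-/- replicate 4 or the library labelled RhoB-/- replicate 5. Without that library 3 of these factors were called higher and 4 lower. Sox9, a crypt base and progenitor factor, fell by 1.16 on the log2 scale, with 18.21 to 29.83 TPM in WT and 8.13 to 12.05 in RhoB-/-. Foxa2, a forkhead factor of endoderm and secretory cells, fell by 0.84. None of these 5 genes overlapped between groups, but they were named as the largest called changes of the list. Over all tested genes 14.5% were free of overlap.

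Posterior Hox genes record position along the gut axis, and the CDX proteins are known to regulate Hox genes in the embryo. Of 13 such genes 7 were tested, and 4 were called lower and 0 higher by limma (5 and 0 at an unadjusted p below 0.05). Over all tested genes 13.5% were called lower and 7.73% higher. The median log2 fold change of the Hox list was -0.91. Hoxb13, a marker of the distal colon and rectum, was 50.02, 135.04, 67.15, 79.41 and 74.99 TPM in WT and 22.42, 35.13, 17.75, 26.46 and 13.99 TPM in RhoB-/-. All RhoB-/- libraries were lower, and Hoxb13 fell by 1.76 on the log2 scale (adjusted p = 0.00113). Hoxa9 fell by 1.32, Hoxa10 by 0.99 and Hoxa13 by 0.88. The Hoxa13 call was lost without WT replicate 2 (limma adjusted p = 0.0512) and with no filter (limma adjusted p = 0.0509). The summed level of the 13 genes was 126 to 244 TPM in WT and 43.4 to 75.3 in RhoB-/-. The part of the Hox difference in the member differences was not tested.

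**Figure D4:**
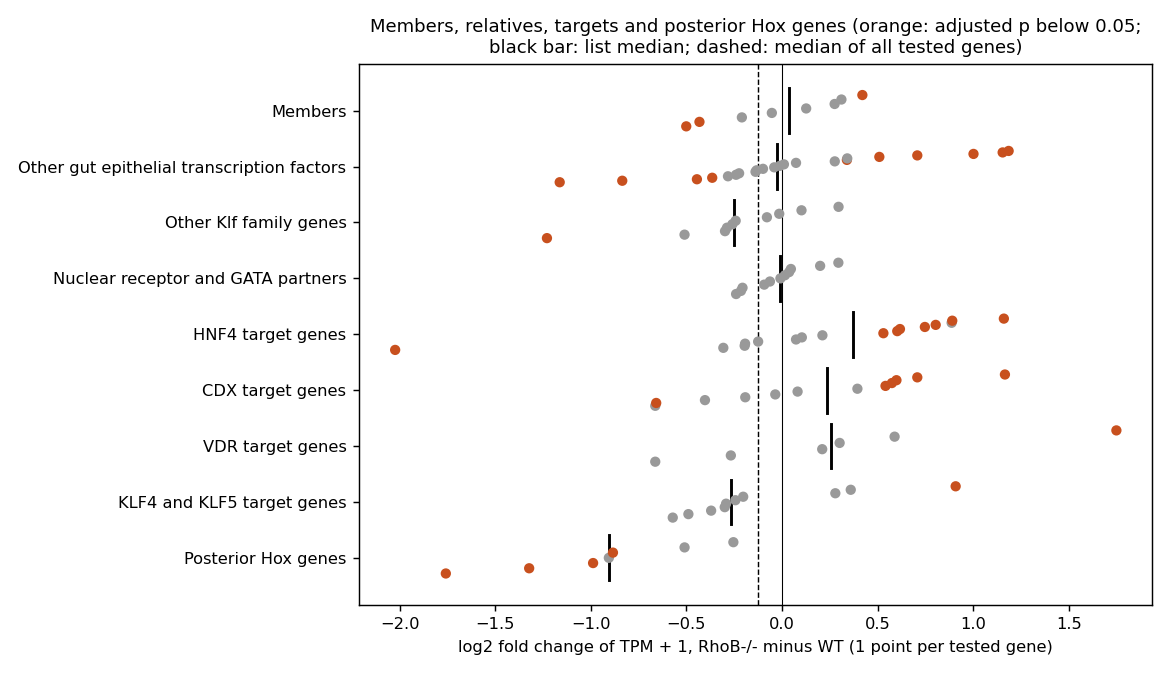
Log2 fold change of TPM + 1, RhoB-/- minus WT (horizontal axis), with 1 point per tested gene in each list. Orange marks an adjusted p below 0.05, black bars are list medians, and the dashed line is the median of all tested genes. The HNF4 target list has its median at 0.37 with Ttr far to the left, and the posterior Hox list has its median at -0.91.

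Marker genes of cell types also moved with genotype, and their counts stand beside 7.73% called higher and 13.5% lower over all tested genes. In bulk samples fewer cells of a type and less RNA per cell cannot be told apart. Colonocyte markers had 3 of 5 called higher, with a summed level of 11664 to 17406 TPM in WT and 14533 to 27786 in RhoB-/-. Pan-epithelial markers had 1 of 6 called higher and goblet cell markers 1 of 5, with sums that overlapped between groups. Cycling cell markers had 3 of 7 called lower, with sums of 272 to 354 TPM in WT and 138 to 342 in RhoB-/-, and stem cell markers had 1 of 4 tested called lower.

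Lymphocyte markers had 4 of 4 tested called higher, with sums of 4.34 to 9.14 TPM in WT and 15.5 to 27.2 in RhoB-/- over 7 genes. Of these 4, Cd8a (0.832 TPM in WT and 2.94 in RhoB-/-) reached the level for testing only through RhoB-/-, and the other 3 were called too. Myeloid markers summed to 1.77 to 3.18 TPM in WT and 3.77 to 14.4 in RhoB-/-, and both tested genes reached that level only through RhoB-/-, so no count is given for them. Mesenchymal and muscle markers summed to 3.33 to 4.20 TPM in WT and 5.80 to 35.3 in RhoB-/- (1 of 2 tested called higher). No endothelial or glial marker reached the level for testing, with sums of at most 2.78 TPM, and squamous markers summed to at most 2.04 TPM with Trp63 at 0 throughout. The part of these shifts in the member differences was not tested.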

How the data were processed

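Total RNA of EDTA-released colonic IECs was sequenced as paired reads of 150 bases from a TruSeq library, in 5 WT and 5 RhoB-/- libraries. Per the study's methods and the submitters' processing notes, the authors trimmed reads, aligned them with HISAT2 to GRCm38.p6, assembled with StringTie and quantified genes with RSEM; edgeR is also listed, and versions are not given in the sources used here. The deposited values are TPM per gene, rounded, with no counts, so the depth of each library is unknown and no counting interval can be given.

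The 12870 of 55487 genes whose TPM averaged 1 or more across all 10 libraries were tested on log2(TPM + 1) with limma 3.58.1 with an intensity trend in R 4.3.3, with Benjamini-Hochberg adjustment over all tested genes and a call at an adjusted p below 0.05. The pseudocount of 1 understates changes of low genes. The fit was tested on simulated data. Exact permutation tests used scipy 1.17.1. Groups came from the sample labels. The member rule uses gene names alone, but the 8 members and all gene lists were chosen with earlier results of these data known. Those lists hold relatives, partners, targets, posterior Hox genes and cell type markers. No set test is therefore given, and no adjustment over a list except for the exact permutation p of the members. Isx and Cldn2 stand in more than one list, as do Car1, Muc2, Krt20, Ccnb1 and Cdk1. Named genes were the members with every library, Rhob, antisense rows of members, the called genes of each list up to the 5 with the largest absolute change, and the 2 genes most like each member; Rxrg and Trp63 were named after their values were seen.

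The main fit has no replicate block. Alternatives were a pseudocount of 0.1, no filter, a minimum of 5 TPM, recentering, quantile normalization, removal of mitochondrial genes, limma without the trend, the replicate block, omission of each library, and p below 0.05 with a fold change above 1.5.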

Additional observations from a re-analysis of the deposited data

Results flagged for a closer look

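Single libraries stood apart in 6 of 70 groups of 5 libraries checked for a distant highest or lowest value, where chance gives about 1 in 20 (3.5 groups). Of the members, Gata6 in WT replicate 1 was 17.16 TPM against 24.24 to 25.49 in the other WT libraries, and Vdr in the library labelled RhoB-/- replicate 5 was 161.80 TPM against 119.66 to 128.60. The Hnf4a/Hnf4g ratio in WT replicate 1 was 16.2 against 10.5 to 11.7. WT replicate 1 also had the highest mitochondrial share, 26.5%.

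Rhob in the library labelled RhoB-/- replicate 5 was 110.87 TPM against 0.09 to 0.57 in the other 4 libraries of its group and 170.52 in the lowest WT library, so that library went against its label and may not be a knockout. In the same library Prdm1 was 9.52 TPM against 2.29 to 4.24. Fabp1 in WT replicate 1 was 1.41 TPM against 0.00 to 0.38. Without WT replicate 1, Gata6 was at a log2 fold change of -0.53 and Hnf4g at -0.62, both called. Without the library labelled RhoB-/- replicate 5, Vdr was at 0.05 and Hnf4a at 0.20, neither called.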

How the results depend on the processing

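All log2 fold changes of the members kept their direction in the 19 alternative settings except that of Cdx1, which was 0.074 after recentering. Recentering also moved the calls, with Hnf4a called at 0.40 and Hnf4g (-0.37) and Gata6 (-0.30) no longer called, so that 2 members were called higher and 0 lower. Removal of mitochondrial genes moved them the other way, with a median of all tested genes of -0.20. Hnf4g was then at -0.58 (limma adjusted p = 0.00546) and Gata6 at -0.51 (limma adjusted p = 0.00237). Cdx2 stayed called, at 0.35 (limma adjusted p = 0.0320). With no filter 28114 genes were tested, and Cdx2 (0.42) and Hnf4g (-0.50) were not called, leaving 0 members higher and 1 lower. Without the trend Cdx2 (0.42) was not called, leaving 0 higher. At p below 0.05 with a fold change above 1.5, Cdx2 (0.42), Hnf4g (-0.50) and Gata6 (-0.43) were not called, leaving 0 higher and 0 lower. The limma adjusted p of Cdx2 ran from 0.0158 to 0.102 over its alternatives, that of Hnf4g from 0.00546 to 0.110 and that of Gata6 from 0.00237 to 0.0993. The cause was not tested.

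Genes called in the whole table were 995 higher and 1734 lower, and with no filter 918 higher and 1197 lower of 28114. The lower count was 1104 at a minimum of 5 TPM, 771 after recentering, 3648 without mitochondrial genes and 1072 under the p and fold limits, and the higher count was 1587 after quantile normalization.

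Libraries with equal replicate numbers did not deviate together (correlations -0.087 to 0.072), so the numbers give no pairing. With the replicate block, 1059 genes were called lower and 0 members higher and 1 lower, with Cdx2 at 0.42 (adjusted p = 0.0652) and Hnf4g at -0.50 (adjusted p = 0.0817). Sign-flip tests over 5 blocked pairs cannot go below p = 0.0625, and the log2 ratio differences were -0.48 for Cdx1/Cdx2, 0.81 for Hnf4a/Hnf4g (exact p = 0.0625 each) and 0.52 for Klf4/Klf5 (exact p = 0.125).

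Leaving out each library in turn, the members called ran from 0 to 1 higher and 0 to 2 lower, and all genes from 716 to 1158 higher and 860 to 2929 lower. Log2 fold changes ran from 0.33 to 0.51 for Cdx2, -0.62 to -0.44 for Hnf4g and -0.53 to -0.39 for Gata6. Over the 10 omissions the log2 ratio difference was -0.55 to -0.41 for Cdx1/Cdx2 and 0.76 to 0.91 for Hnf4a/Hnf4g. It was 0.46 to 0.64 for Klf4/Klf5, with an exact permutation p of at most 0.0476. Cdx1/Cdx2 and Hnf4a/Hnf4g had an exact permutation p of 0.0159 in every omission. That value was fixed in advance, because groups free of overlap stay so when a library is left out. It therefore adds nothing to the full comparison.

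List counts moved by more than 1.5 times as follows. With no filter, 3 other gut factors and 4 HNF4 targets were called higher. Without mitochondrial genes the lower calls were 3 other Klf genes, 7 other gut factors, 1 partner, 2 HNF4 targets, 3 CDX targets, 1 VDR target and 1 KLF target. After quantile normalization they were 2 HNF4, 3 CDX, 1 VDR and 2 KLF targets. A pseudocount of 0.1 and a minimum of 5 TPM each gave 2 CDX targets and 1 VDR target lower. The p and fold limits gave 2 other gut factors lower, 3 CDX targets higher and 2 lower, and 2 VDR targets higher and 1 lower.

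Leaving out a library took the other gut factors called higher to as few as 1, the HNF4 targets to 4 and the CDX targets to 3, each without WT replicate 4, and the KLF targets called lower to 4 without RhoB-/- replicate 3. Depth is unknown, so low levels such as Fabp1 have no counting error attached.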
